A study of Rattus with 18 samples.

Results

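Creb3l3, Pdk4, Vnn1, Eci1 and Cyp24a1 are 5 genes of fasting and tubule metabolism whose RNA was high on some arrays of rat glomeruli and low on others. They were selected on that pattern of levels across these arrays, with no numeric threshold, and were matched by gene name (Eci1 also under its older symbol, Dci). They are 5 of 35071 gene and transcript names on the array, which has 41012 probes. The 5 genes had 7 probes: 2 each for Pdk4 and Cyp24a1 and 1 each for the others. Because the levels chose the genes, their levels are given as a description with no test. The question addressed is whether they were high and low on the same arrays.

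The 18 arrays measured glomerular RNA of rats (strain SD, 200 g) in anti-Thy1 nephritis, a model in which an antibody binds Thy1 on mesangial cells, the contractile support cells of the glomerulus, and injures them. Per the labels, 30 rats received the antibody and were killed on days 1 to 5, and 6 received saline and were killed as the control group on day 0. Each of the 6 days had 3 arrays; 6 rats per day gave 3 glomeruli apiece, per the design text, and how these rats map to the arrays is not given. The p-values below therefore measure the spread between arrays, which may be technical. Feeding state and hour of death are not given in the labels used here. In such bulk samples fewer cells of a type and less RNA per cell cannot be told apart.

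All 5 genes belong to lipid, glucose, coenzyme A or vitamin D metabolism. Creb3l3 (CREB-H) is a transcription factor held in the membrane of the endoplasmic reticulum; it is released by proteases and known from liver and intestine for its role in fasting lipid metabolism. Pdk4 phosphorylates and thereby inhibits the pyruvate dehydrogenase complex, which spares glucose when fat is burned. Eci1 is the mitochondrial enoyl-CoA isomerase that lets unsaturated fatty acids enter beta-oxidation, and Vnn1 is a membrane-anchored pantetheinase that splits pantetheine, a breakdown product of coenzyme A, into pantothenate and cysteamine. Pdk4, Vnn1, Eci1 and Creb3l3 are known as targets of PPAR alpha, the nuclear receptor that fatty acids activate during fasting. Cyp24a1 is the mitochondrial 24-hydroxylase that inactivates vitamin D hormone, and in the kidney it is known from the proximal tubule.

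Levels below are the brightness of 60-base oligonucleotides, and the sequences of 4 of the 7 are shown: the probes behind the levels of Creb3l3, Cyp24a1 and Eci1, and the dimmer of the 2 Pdk4 probes, whose differences from the brighter one are given below. Each runs 5′ to 3′ as the scanner files give it, with positions on build rn4 from the same files. Exon annotation on that build was not used here. The Creb3l3 probe lies at chr7:10110075-10110134 on the plus strand, the brighter Cyp24a1 probe at chr3:161543241-161543300 on the minus strand, and the Eci1 probe at chr10:13695561-13695620 on the plus strand. The dimmer Pdk4 probe lies at chr4:30239150-30241038 on the minus strand, and these ends are 1889 bases apart, so the probe is split on the genome.
Creb3l3: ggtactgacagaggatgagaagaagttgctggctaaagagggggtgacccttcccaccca
Cyp24a1: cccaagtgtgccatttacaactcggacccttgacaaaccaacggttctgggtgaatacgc
Eci1: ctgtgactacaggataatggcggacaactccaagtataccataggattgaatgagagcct
Pdk4, dimmer probe: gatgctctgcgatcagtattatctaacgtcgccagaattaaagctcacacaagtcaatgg
The brighter Pdk4 probe, from which the Pdk4 levels are taken, lies at chr4:30233848-30233907 on the minus strand. The Vnn1 probe lies at chr1:22087762-22087821 and the dimmer Cyp24a1 probe at chr3:161540181-161540240, both on the minus strand.

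Levels are log2 of the processed spot intensity minus the 75th percentile of the array, so 0 equals that percentile and a difference of 1 is a doubling. The brightest probe stands for a gene unless the dimmer one is named. The share of probes well above background ranged from 55.2% to 69.6% over the arrays, none was saturated, and with 3 arrays a day the precision is limited. The 75th percentile of intensity was 181 to 229 on the controls and 252 to 452 on the other arrays. Control replicate 4 had r of 0.95 and 0.96 with the other controls, which had 0.99 with each other. The part of these traits in the changes against day 0 was not tested. The controls shared slide 1 with day 1 replicate 1, and the other day 1 arrays shared slide 2 with day 3 replicates 2 and 3. Day 3 replicate 4 was on slide 3 beside all of day 5, all of day 2 was on slide 4 beside day 4 replicate 1, and the rest of day 4 was on slide 5. The header fields put days 2 and 4 on a scan day of their own. The glomerulus label was checked against cell markers: all 11 podocyte markers and all 27 proximal tubule markers tested were well above background on all 18 arrays, so tubular RNA was present beside glomerular RNA on every array.

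The 5 genes were high together on the same 8 arrays: the 3 controls, the 3 arrays of day 2 and day 3 replicates 3 and 4. On these arrays each gene lay above the midpoint of its own range over the 18 arrays. All 5 lay below it on 4 arrays, which were day 1 replicates 1 and 4, day 3 replicate 2 and day 5 replicate 5. On the other 6 arrays, which were day 1 replicate 5, the 3 arrays of day 4 and day 5 replicates 2 and 4, some genes were above and others below. Apart from Cyp24a1 on day 1 replicate 5, the genes thus moved together over days 0 to 3, and they parted on day 4. On day 5 only Cyp24a1 parted from the others, which were low, on replicates 2 and 4.

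**Figure D1:**
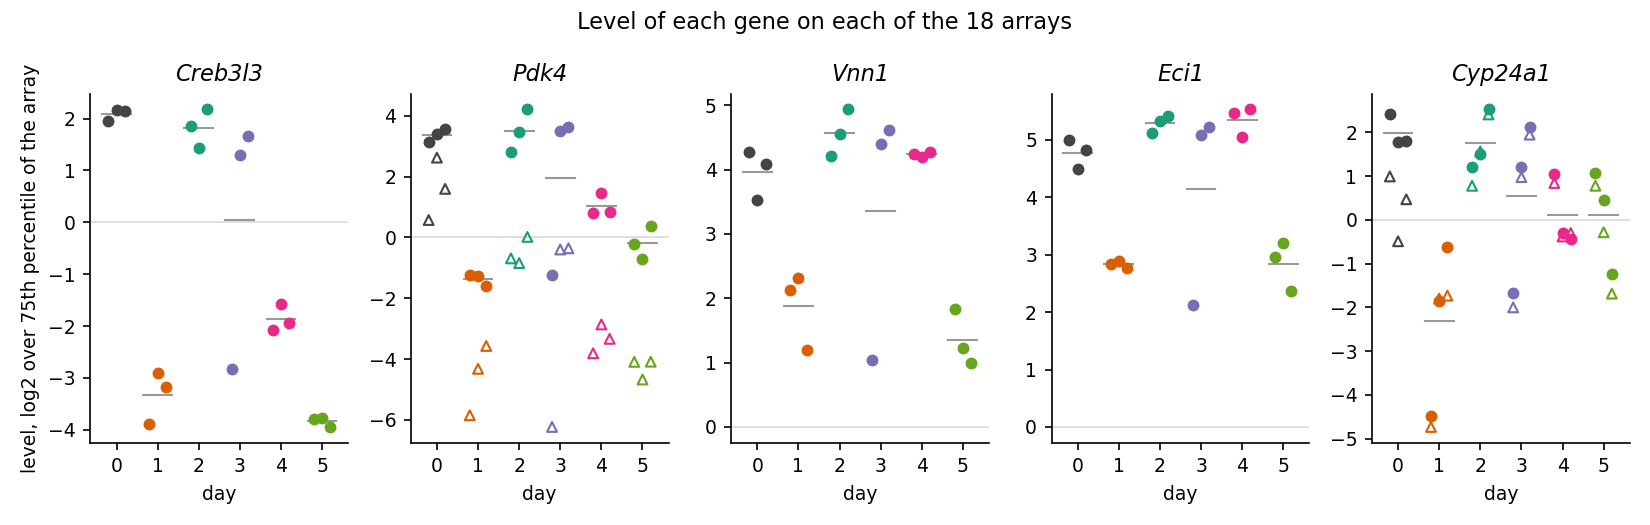
Level of each gene (log2 over the 75th percentile of the array, a separate axis range for each gene) on the 18 arrays by day. Filled circles are the brightest probe, open triangles the dimmer probe of Pdk4 and Cyp24a1, and short lines the mean of the 3 filled circles of a day; day 3 replicate 2 is the low point of day 3 in every panel.

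Creb3l3 had the clearest split into high and low arrays. Its levels were 1.94, 2.17 and 2.14 on the control arrays (replicates 2, 4 and 5), −3.89, −2.90 and −3.17 on day 1 (replicates 1, 4 and 5), and 1.86, 1.43 and 2.18 on day 2 (replicates 2, 3 and 4). On day 3 they were −2.83, 1.31 and 1.67 (replicates 2, 3 and 4), on day 4 −2.07, −1.58 and −1.95 (replicates 1, 2 and 3), and on day 5 −3.78, −3.77 and −3.95 (replicates 2, 4 and 5). No array lay between 1.31 and −1.58, a gap of 2.88, whereas the next widest gap between neighbouring arrays was 0.76. The control mean was 2.08 ± 0.12 (SD, n = 3), and the means of days 1, 4 and 5 were 42.4-fold, 15.4-fold and 60.4-fold lower, with no overlap of arrays. The day 2 mean differed from the control by −0.26, and its arrays overlapped the controls.

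Pdk4 followed Creb3l3, with day 4 in between. In the same order of replicates its levels were 3.14, 3.41 and 3.58 on day 0, −1.23, −1.28 and −1.61 on day 1, and 2.82, 3.46 and 4.21 on day 2. They were −1.24, 3.49 and 3.64 on day 3, 0.80, 1.47 and 0.83 on day 4, and −0.23, −0.71 and 0.39 on day 5. On this brighter probe the low arrays thus formed steps, with day 1 and day 3 replicate 2 lowest, then day 5, then day 4, and no array of these sets overlapped the next. Against the control mean of 3.38 ± 0.22 (SD, n = 3) the fold decrease was 26.9 on day 1, 5.08 on day 4 and 11.8 on day 5. The dimmer Pdk4 probe, well above background on 14 of 18 arrays, put the same 8 arrays above its widest gap. It differed on day 2, where it was 2.10 below its control mean (day 2 levels of −0.69, −0.84 and 0.02 against 0.57, 2.63 and 1.60), whereas the brighter probe was 0.12 above. Its low arrays did not form the same steps, as day 1 overlapped days 4 and 5. Its levels were −5.85, −4.32 and −3.57 on day 1, −3.81, −2.86 and −3.34 on day 4, and −4.09, −4.67 and −4.09 on day 5. Only 1 array of day 1 and 2 of day 5 were well above background on it.

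Vnn1 was low on day 1, day 5 and day 3 replicate 2 and high elsewhere, including day 4. Its levels were 4.27, 3.52 and 4.09 on day 0, 2.13, 2.32 and 1.19 on day 1, and 4.22, 4.56 and 4.94 on day 2. They were 1.04, 4.39 and 4.62 on day 3, 4.24, 4.20 and 4.28 on day 4, and 1.83, 1.22 and 1.00 on day 5. Its widest gap, 1.20 between 3.52 and 2.32, left 11 arrays above and 7 below. The mean was 4.23-fold below the control on day 1 and 6.11-fold below it on day 5. On day 4 it was 0.28 above the control mean of 3.96 ± 0.39 (SD, n = 3), a difference smaller than the spread of the controls whose sign changed with the scaling between arrays (−0.14 after quantile normalization and −0.27 relative to reference genes).

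Eci1 had the same 11 high and 7 low arrays as Vnn1. Its levels were 4.99, 4.50 and 4.83 on day 0, 2.84, 2.88 and 2.77 on day 1, and 5.12, 5.33 and 5.42 on day 2. They were 2.13, 5.09 and 5.23 on day 3, 5.46, 5.06 and 5.53 on day 4, and 2.95, 3.21 and 2.37 on day 5. No array lay between 4.50 and 3.21. Against the control mean of 4.77 ± 0.25 (SD, n = 3) the fold decrease was 3.84 on day 1 and 3.81 on day 5, and the arrays of days 2 and 4 lay above all 3 controls. The latter depended on the scaling: the day 4 mean was 0.58 above the control mean here, 0.05 above it after quantile normalization and 0.03 relative to reference genes.

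Cyp24a1 was graded and had no such split. Its levels were 2.41, 1.77 and 1.81 on day 0, −4.48, −1.85 and −0.62 on day 1, and 1.21, 1.51 and 2.52 on day 2. They were −1.68, 1.22 and 2.11 on day 3, 1.06, −0.30 and −0.43 on day 4, and 1.07, 0.46 and −1.23 on day 5. Its widest gap, 2.63, set 1 array (day 1 replicate 1) apart from the other 17, and this array also sets the midpoint of its range. Beside it, day 1 replicate 4, day 3 replicate 2 and day 5 replicate 5 were lowest. The day 1 mean of −2.32 ± 1.97 (SD, n = 3) was 19.9-fold below the control mean of 2.00 ± 0.36 (SD, n = 3), and the means of days 4 and 5 were 3.70-fold and 3.72-fold below it. The dimmer probe gave 0.27 and 0.72 below its control mean on days 4 and 5, with overlapping arrays, so the size of these later decreases depended on the probe. On day 2 the probes had opposite signs: the dimmer one was 1.26 above its control mean and the brighter one 0.25 below, both with arrays overlapping the controls.

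The ranges of the 5 genes were wide among all genes measured. From lowest to highest array Cyp24a1 spanned 7.00 on the log2 scale, Creb3l3 6.12, Pdk4 5.82, Vnn1 3.94 and Eci1 3.40, against a median range of 1.63 over 23184 genes and transcripts. A wider range was found for 76 genes in the case of Cyp24a1, 173 for Creb3l3, 228 for Pdk4, 1533 for Vnn1 and 2495 for Eci1. Since wide ranges chose these genes, this places them and tests nothing.

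Pair by pair, Vnn1 and Eci1 lay on the same side of their midpoints on all 18 arrays, and Creb3l3 and Pdk4 on 17, differing on day 4 replicate 2. Creb3l3 parted from Vnn1 and from Eci1 on the 3 arrays of day 4 only, where Creb3l3 was low and both others high. Pdk4 parted from Vnn1 and from Eci1 on day 4 replicates 1 and 3. By this count Cyp24a1 was the least like the rest. It shared a side with Creb3l3 on 12 arrays, with Pdk4 on 13, and with Vnn1 and Eci1 on 15 each. The mean over the 10 pairs was 15.2 arrays. The Cyp24a1 midpoint was set by day 1 replicate 1, however, and ranks ordered the pairs otherwise. Spearman's rho of Cyp24a1 over the 18 arrays was 0.880 with Pdk4, 0.835 with Creb3l3, 0.697 with Vnn1 and 0.579 with Eci1. For Creb3l3 with Pdk4 it was 0.827.

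**Figure D2:**
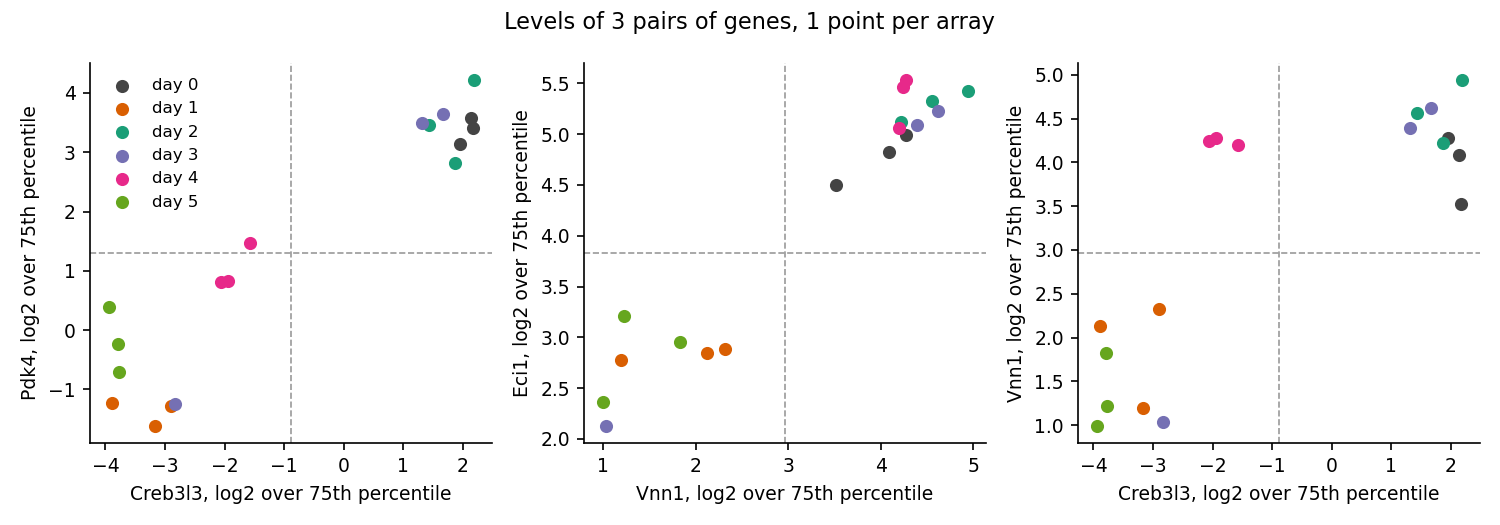
Levels (log2 over the 75th percentile) of Pdk4 against Creb3l3, Eci1 against Vnn1 and Vnn1 against Creb3l3, with 1 point per array coloured by day and dashed lines at the midpoints of the ranges. The 3 day 4 arrays leave the pattern in the right panel, where Creb3l3 lies between −2.07 and −1.58 and Vnn1 between 4.20 and 4.28.

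Because the arrays fall into a high and a low set, no Pearson correlation over all of them is given for pairs of the 5 genes. Within the 8 arrays on which all were high, Pearson's r of the 10 pairs was between −0.42 and 0.97 with a median of 0.34, and within the other 10 arrays it was between 0.25 and 0.95 with a median of 0.67. The agreement between arrays of 1 day rested on day 3 replicate 2: with each day's mean subtracted the median r was 0.86 over 18 arrays and 0.14 without day 3 replicate 2. High and low arrays shared slides. On slide 1 day 1 replicate 1 was low for all 5 genes beside 3 high controls, on slide 2 day 3 replicate 3 was high beside 3 arrays low for Creb3l3, Pdk4, Vnn1 and Eci1, and on slide 3 day 3 replicate 4 was high beside the 3 day 5 arrays, again low for these 4. Days 2 and 4 shared a scan day, and Creb3l3 was 3.69 lower on day 4 than on day 2 while Eci1 was 0.06 higher.

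Day 3 replicate 2 differed from the other day 3 arrays in all 5 genes. It lay below the mean of replicates 3 and 4 by 4.80 for Pdk4, 4.32 for Creb3l3, 3.47 for Vnn1, 3.34 for Cyp24a1 and 3.03 for Eci1, all more than 1 on the log2 scale, as were 2.93% of 23169 genes measured on the 3 arrays. With 1 array on one side there is no replicate check. Of 29 measured genes of PPAR alpha targets and fatty acid oxidation, a list that holds none of the 5, 21 lay lower by more than 1 (median −1.42). Of other lists, 5 of 20 fasting and glucocorticoid response genes, 0 of 12 pyruvate dehydrogenase genes and 2 of 16 vitamin D and mineral genes did so, against a median of 0.01 over all genes. Proximal tubule markers were lower by a median of 0.51 with 1 of 27 past 1, podocyte markers had a median of −0.06 with 0 of 11, and mesangial markers 0.32 with 0 of 8. The part of tubule content in the difference was not tested.

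**Figure D3:**
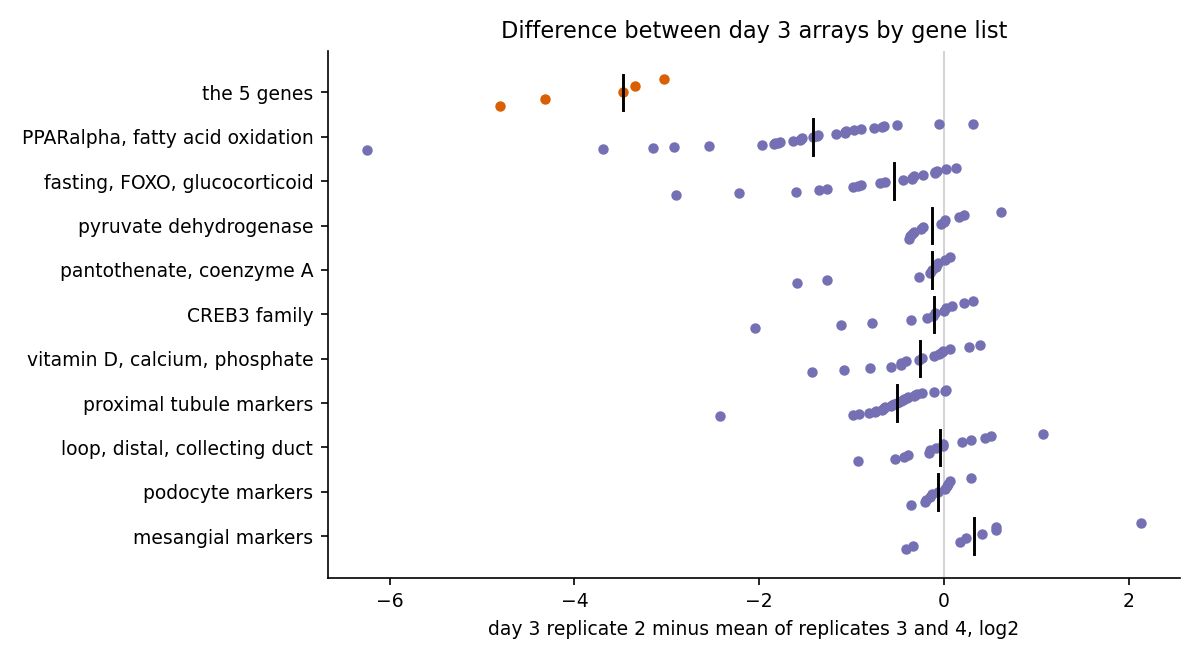
Difference between day 3 replicate 2 and the mean of day 3 replicates 3 and 4 (log2) for the 5 genes (orange) and for each gene of 10 lists, with black bars at the medians. The 5 genes lie between −4.80 and −3.03, and the list of PPAR alpha targets and fatty acid oxidation has its median at −1.42.

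Genes whose pattern was most like that of each of the 5 were taken as those with the highest Pearson's r over the 18 arrays among 12244 genes with a current symbol, as a description. For Creb3l3 these included Angptl4 (r = 0.96), Slc25a22 (0.94), Acot7 (0.94), Tex36 (0.92) and Cpt1a (0.92), and for Pdk4 Angptl4 (0.95), Cpt2 (0.93), Baz2b (0.90) and Ech1 (0.90). Angptl4 thus headed both lists. For Vnn1 they included Acaa1b (0.97), Ehhadh (0.97), Acot2 (0.96) and Ech1 (0.96), and for Eci1 Acot2 (0.97), Ech1 (0.97), Acaa1b (0.96), Ehhadh (0.96) and Eci2 (0.94). Cyp24a1 had lower values: Txnip (0.88), Prap1 (0.86), Jakmip2 (0.81), Angptl4 (0.81) and Rnf6 (0.80). An r above 0.8 was reached by 33 genes with Creb3l3, 37 with Pdk4, 54 with Vnn1, 51 with Eci1 and 5 with Cyp24a1.

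With each day's mean subtracted, the genes most like the 5 included Angptl4 for Creb3l3 (0.96), Tmem39b for Pdk4 (0.94), Acaa1b for Vnn1 (0.98), Ech1 for Eci1 (0.98) and Rnf6 for Cyp24a1 (0.92). Tmem39b, with r of 0.94 to Creb3l3, Pdk4 and Eci1, entered here although its day means on days 1, 2, 4 and 5 lay between 0.51 and 0.94 against 1.01 in controls; its lowest level was −3.06. Other names on these lists were Ech1 (0.90) and Eloa (0.87) for Creb3l3, Angptl4 (0.91), Ech1 (0.88) and Acaa1b (0.86) for Pdk4, and Decr1 (0.96), Cpt2 (0.96), Ech1 (0.97) and Apoa4 (0.95) for Vnn1. Eci1 had Ehhadh (0.95), Acaa1b (0.95) and Acot2 (0.94), and Cyp24a1 had Sik1 (0.82), Pik3cb (0.81), Ppara (0.81) and Sgms2 (0.81). Without day 3 replicate 2 the within-day r stayed between 0.82 and 0.89 for the genes named with Vnn1, between 0.71 and 0.84 for those with Eci1 other than Tmem39b (0.20), and between 0.72 and 0.90 for those with Cyp24a1. It fell to 0.70 for Angptl4, 0.44 for Eloa, 0.05 for Ech1 and 0.03 for Tmem39b with Creb3l3, and to between −0.01 and 0.33 for the genes named with Pdk4.

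With the scaling used here, fewer than 1 in 2 of the PPAR alpha targets and fatty acid oxidation genes were called lower on days 1 and 5. These were the days on which Vnn1 and Eci1 were low. On day 1, 12 of the 29 fell and 1 rose against day 0, by limma with an adjusted p under 0.05; over all 23184 genes tested 20.7% fell and 19.2% rose. On day 5, 11 fell and 0 rose, against 23.4% and 20.9% of all genes. The list's median change was −0.77 on day 1 and −0.66 on day 5, against 0.06 over all genes on each of these days. Markers of other cells moved on day 1 too: 6 of 9 macrophage markers rose (median 2.48), and 4 of 8 mesangial and 5 of 10 glomerular endothelial markers fell (medians −0.72 and −0.67); their part in the list's change was not tested. With the slide as a block, 4 of the 29 fell on day 1, when 4105 of all 23184 genes were called in either direction. On day 5, 0 of the list were called with this block, beside 103 of all genes. With each array scaled to its median, 8 fell and 2 rose on each of the 2 days. Other scalings called more of the list on day 5, counting either direction: 20 of the 29 after quantile normalization and 17 relative to reference genes. The percentages of all genes above belong to the scaling used here and do not apply to these counts. With normexp background correction, which called 29 of all genes on day 1 and 56 on day 5, none of the list was called on either day, and each call named below for these days against day 0 was lost under it.

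Angptl4, a secreted inhibitor of lipoprotein lipase, was low on the days on which Creb3l3 was low, day 4 included. Its levels on day 4, −2.63, −2.23 and −2.26, lay below all controls (−0.14, 0.88 and 0.41), and it fell 11.2-fold on day 1, 6.77-fold on day 4 and 7.41-fold on day 5 (adjusted p 0.0034, 0.0045 and 0.0049 by limma). Ehhadh, the peroxisomal bifunctional enzyme of beta-oxidation, fell 5.24-fold on day 1 (log2 −2.39 ± 0.63 SE, adjusted p = 0.010 by limma). Fabp1, a fatty acid carrier, was not well above background on any day 5 array and was at least 1.54-fold lower than on day 0, taking as its level the higher of its own signal and the lowest signal well above background; with normexp background correction its fitted change on day 5 was 0.13 upward.

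On days 2, 3 and 4 few genes of this list were called, and Vnn1 and Eci1 were high on days 2 and 4. On day 2, 2 of 29 rose and 0 fell, against 20.8% and 25.1% of all genes; these were Bdh1 (1.09 ± 0.31, adjusted p = 0.011 by limma) and Hadhb (0.75 ± 0.21, adjusted p = 0.011). Bdh1 interconverts ketone bodies and Hadhb is a subunit of the mitochondrial trifunctional protein; both calls were lost without day 0 replicate 4 and without day 2 replicate 4. On day 3, 1 rose and 0 fell, against 21.7% and 26.0%, and on day 4, 2 rose and 2 fell, against 25.6% and 26.7%. The direction on days 3 and 4 depended on the scaling: relative to reference genes 0 rose and 4 fell on day 3 and 0 rose and 5 fell on day 4, whereas with each array scaled to its median 7 rose and 2 fell on day 4. The percentages of all genes just given belong to the scaling used here and do not apply to these counts. Cpt1a, which admits long-chain fatty acids to mitochondria, fell on day 4 by 1.34 ± 0.34 on the log2 scale (adjusted p = 0.0050 by limma), with levels of 1.76, 1.65 and 1.00 against 2.70, 2.90 and 2.86 in controls.

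**Figure D4:**
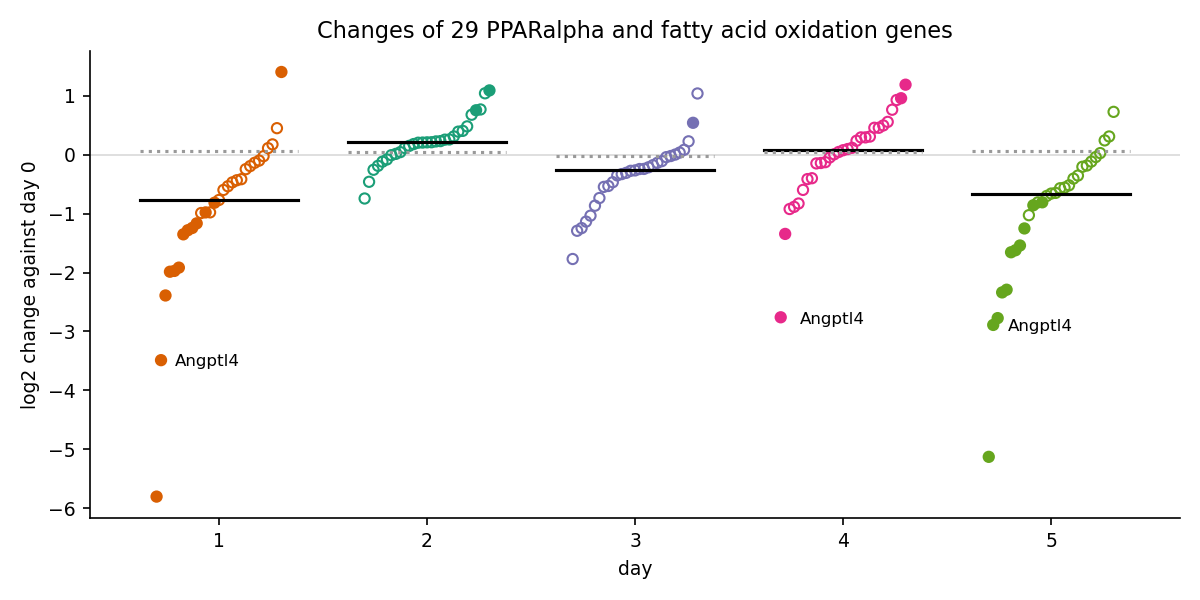
Log2 change against day 0 of each of 29 genes of PPAR alpha targets and fatty acid oxidation on days 1 to 5, sorted within a day. Filled points have an adjusted p under 0.05 by limma, black lines are the medians of the list and dotted lines the medians of all genes tested; the list's median is −0.77 on day 1 and −0.66 on day 5.

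Between consecutive days few genes of any kind were called. From day 1 to day 2, 0.388% of all genes were called and 2 of the 29 genes rose, among them Angptl4 (3.41 ± 0.69, adjusted p = 0.049 by limma). Txnip, an inhibitor of thioredoxin that restrains glucose uptake and the gene most like Cyp24a1, rose by 1.32 ± 0.25 (adjusted p = 0.038). From day 4 to day 5, with 2.77% of all genes called, 3 of the 29 fell, among them the acyl-CoA thioesterase Acot2 (−1.49 ± 0.38, adjusted p = 0.047 by limma) and Fabp1 (at least 2.61-fold lower, a direction that normexp background correction turned, to 0.51 higher on the log2 scale). The calls of Angptl4, Txnip and Acot2 were lost whichever array of the days compared was left out. None of the 29 was called from day 2 to day 3 (0.323% of all genes), from day 3 to day 4 (2.99%) or from day 2 to day 4 (0.0992%) by limma. At an unadjusted p under 0.05 by limma there were 3, 6 and 4 of the 29. Of all 23184 genes there were 2577, 4765 and 3224, shares close to those of the list.

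**Figure D5:**
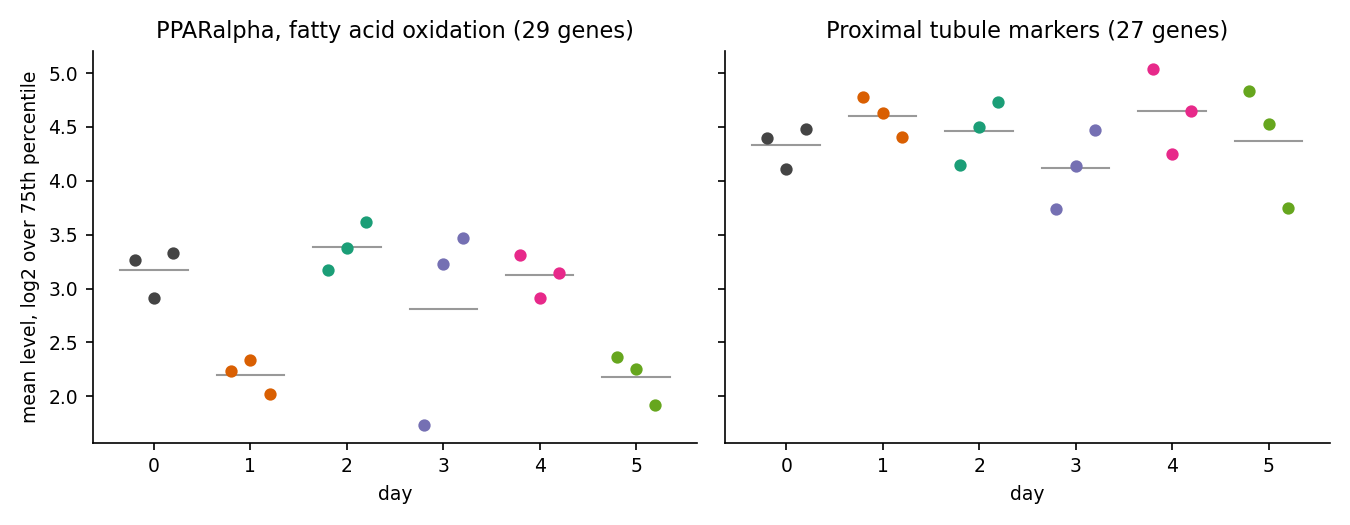
Mean level (log2 over the 75th percentile) on each array of 29 genes of PPAR alpha targets and fatty acid oxidation (left) and of 27 proximal tubule markers (right), with grey lines at the mean of 3 arrays. The left panel is low on day 1, day 3 replicate 2 and day 5 (1.73 to 2.36), while in the right panel day 1 lies between 4.41 and 4.78 and the controls between 4.11 and 4.49.

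Few proximal tubule markers were called on day 1 or day 5. On day 1, 4 of 27 rose and 1 fell, with a median change of 0.46, beside 19.2% and 20.7% of all genes, and on day 5, 2 rose and 2 fell with a median of 0.07, beside 20.9% and 23.4%. Of 14 markers of the loop, distal tubule and collecting duct 0 rose on days 1 to 4, whereas 2, 3, 5 and 4 fell on these days (medians −0.18, −0.22, −0.44 and −0.22), beside 20.7%, 25.1%, 26.0% and 26.7% of all genes, and on day 5, 2 rose and 2 fell. Slc34a1, the phosphate transporter of the proximal tubule, lay between 5.70 and 6.94 on the 18 arrays and Umod, the uromodulin of the thick ascending limb, between 7.87 and 8.79, and neither was called on any day against day 0. On single arrays the mean of the 27 markers was 4.41 to 4.78 on day 1, 3.74 to 4.48 on day 3 and 3.74 to 4.83 on day 5, and day 3 replicate 2 and day 5 replicate 5 had the lowest values of their days (3.74 each). With each day's mean subtracted, over 18 arrays that also share slides, r with this mean was between 0.31 and 0.60 for the 5 genes, and without day 3 replicate 2 it was 0.81 for Eci1, 0.68 for Vnn1, 0.41 for Cyp24a1, −0.08 for Creb3l3 and −0.13 for Pdk4. The same r with the mean of the PPAR alpha list was between 0.67 and 0.96, and without that array 0.81 for Vnn1 and for Eci1, 0.37 for Cyp24a1, 0.07 for Creb3l3 and 0.06 for Pdk4. Vnn1 and Eci1 thus varied with both lists within days, but not with these lists alone. Without that array their r was 0.77 and 0.75 with the mean of the pyruvate dehydrogenase list. It was 0.72 and 0.52 with the loop, distal tubule and collecting duct markers, and −0.53 and −0.67 with the glomerular endothelial markers. The part of tubule content in these values was not tested. Of 10 hepatocyte markers 4 were measured and Alb was not among them. The mean of 6 adipocyte markers was −3.27 to −2.33 in controls, highest on day 3 (−1.06 to −0.54), and −3.16, −2.86 and −0.91 on day 5; Adipoq, which defines adipocytes, lay between −2.37 and −0.08 and had its highest levels on day 5.

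Of 12 genes of the pyruvate dehydrogenase complex and its control, 1 fell on each of days 1, 4 and 5, when Pdk4 was low, and 2, 7 and 5 rose. Over all genes 20.7%, 26.7% and 23.4% fell and 19.2%, 25.6% and 20.9% rose on these days. The gene that fell was Pdk1, another kinase of the complex, by 1.30 ± 0.39 on the log2 scale on day 1 (adjusted p = 0.018 by limma), 1.24 ± 0.39 on day 4 (adjusted p = 0.015) and 1.51 ± 0.39 on day 5 (adjusted p = 0.0072). The calls of days 1 and 4 were lost without day 0 replicate 4, and also without day 1 replicate 1 and day 4 replicate 1, respectively. That of day 5 was lost with the slide as a block. Days 2 and 4 shared no slide with day 0 or a day linked to it, so their calls could not be adjusted for slide. Pdk1 was also called lower on day 2, when Pdk4 was high (−1.06 ± 0.39, adjusted p = 0.037 by limma). That call was lost without day 0 replicate 4 and without any array of day 2. Of 10 other settings, the Pdk1 calls of days 1, 2, 4 and 5 held in 8, 3, 4 and 7. The 10 include the slide block, which is no check of the slide for days 2 and 4. Pdp1, the phosphatase that opposes the kinases, rose 3.05-fold on day 4 (log2 1.61 ± 0.30 SE, adjusted p = 0.00068 by limma). It was also called on days 2, 3 and 5, higher on days 3 and 5, but not on day 1. Its calls thus did not follow the days on which Pdk4 was low. Of the 12 genes, 3 rose and 2 fell on day 2, beside 20.8% and 25.1% of all genes. On day 3, 2 rose and 0 fell, beside 21.7% and 26.0%. On day 3 replicate 2, where Pdk4 was at −1.24, none of the 12 lay more than 1 below the other day 3 arrays.

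Of 20 measured genes of fasting, FOXO and glucocorticoid response, 7 fell and 1 rose on day 1 and 9 fell and 1 rose on day 5, beside 20.7% and 23.4% of all genes that fell. The 5 that fell on day 2 and on day 4 and the 6 on day 3 were shares near those of all genes (25.1%, 26.7% and 26.0%). Foxo3, a transcription factor active when insulin is low, fell on every day, by 2.71 on day 1 and 3.03 on day 2 (SE 0.49, adjusted p = 0.0026 and 0.00083 by limma). Its levels were −2.09, −0.13 and −1.33 in controls and −3.96, −4.41 and −4.25 on day 2, and the 5 genes were high on both days. Pck1, the gluconeogenic enzyme of liver and proximal tubule, was low on day 1 and on day 3 replicate 2, as Creb3l3, Pdk4, Vnn1 and Eci1 were. Its levels were 6.78, 6.13 and 6.97 in controls, 4.28, 5.12 and 4.64 on day 1 and 4.19, 6.33 and 6.49 on day 3. Levels on day 4, when these genes parted, are not given here for Pck1. Pck1 fell by 1.95 ± 0.57 on day 1 (adjusted p = 0.017 by limma, lost without day 1 replicate 1) and by 2.52 ± 0.57 on day 5 (adjusted p = 0.0037).

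Of 12 measured genes of the CREB3 family, its processing and Creb3l3 targets, 3, 5, 5, 6 and 5 fell on days 1 to 5 and 1, 0, 1, 2 and 1 rose. Over all genes 20.7%, 25.1%, 26.0%, 26.7% and 23.4% fell and 19.2%, 20.8%, 21.7%, 25.6% and 20.9% rose. Mbtps1, the site-1 protease that releases Creb3l3 from the membrane, fell by 2.40 ± 0.55 on day 1 and by 2.72 ± 0.55 on day 2 (adjusted p = 0.0057 and 0.0019 by limma), whereas Creb3l3 itself was high on day 2. Apoa4, an apolipoprotein and Creb3l3 target, fell by 1.37 ± 0.43 on day 5 (adjusted p = 0.019), a call lost without day 0 replicate 2 or 5 or day 5 replicate 4 or 5. In the pantothenate and coenzyme A pathway, to which Vnn1 feeds pantothenate, 2 of 9 rose and 2 fell on day 1, near the shares of all genes just given, and 3 rose and 3 fell on day 5. Pank3, a pantothenate kinase, fell on all 5 days, from 1.76 ± 0.39 on day 1 to 2.22 ± 0.39 on day 4 (adjusted p = 0.0050 and 0.00052 by limma), days on which Vnn1 was low and high.

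Around Cyp24a1, 3 of 16 measured genes of vitamin D, calcium and phosphate handling fell and 1 rose on day 1, no more than among all genes (20.7% and 19.2%), and 6 fell and 1 rose on day 3, beside 26.0% and 21.7%. Vdr, the vitamin D receptor, had levels of −0.46, 0.75 and −0.02 in controls and −2.56, −2.34 and −1.98 on day 1, and no array of any later day reached the controls. It fell by 2.39 ± 0.37 on day 1 (adjusted p = 0.0015 by limma) and by 1.69 ± 0.37 on day 2 (adjusted p = 0.0029), when Cyp24a1 lay at 1.21 to 2.52, beside controls of 1.77 to 2.41. Rxra, the partner of both Vdr and PPAR alpha, fell by 2.89 ± 0.60 on day 1 and 4.24 ± 0.60 on day 3 (adjusted p = 0.0042 and 0.00053 by limma). Cyp27b1, which makes vitamin D hormone, fell on day 5 by 1.06 ± 0.36 (adjusted p = 0.028), a call lost without day 0 replicate 4 or 5 or day 5 replicate 2 or 5. Ppara, the receptor gene itself, lay between −1.93 and −1.80 in controls, −2.75 and −2.10 on day 1 and −1.83 and −0.50 on day 2, and was lowest on day 4 replicate 2 (−3.24) and day 3 replicate 2 (−3.12).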

How the data were processed

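Per the file headers, Agilent Feature Extraction 10.7.3.1 gave the authors' intensity values, which were background-subtracted and detrended within each array and not scaled between arrays. A deposited value table of log2 values, whose processing is not given in the sources used here and whose columns share quantiles within days 0, 2 and 4 and within days 1, 3 and 5, served only as an alternative. Control and outlier spots were left out, spots of a probe averaged, and log2 intensity minus each array's 75th percentile taken. Of 41012 probes, 27833 were well above background on all 3 arrays of at least 1 day; a gene was its brightest probe, giving 23184 genes and transcripts with 56 missing values. Gene lists were tested with limma 3.58.1 in R 4.3.3 (lmFit, eBayes, all 6 days in 1 fit, no block), with Benjamini-Hochberg adjustment over all genes and a threshold of 0.05; ± is SE of the fit unless SD is written. The script recovered known changes in simulated data. Their noise was independent between arrays with no slide or scan-day effect, so they do not bear on such effects. The 5 genes and the lists were chosen with earlier results of these data known. Named genes are the 5, up to 3 genes of a list with the largest change past the threshold in a comparison, the 5 genes most like each of the 5, and defining markers; 1 gene that this rule names is not reported here. Same-numbered arrays of different days did not deviate together (median r −0.02 over 27 pairs), so the numbers were not taken as pairs. Alternatives were other scalings, normexp background correction, no filter, slide or replicate number as a block, only the days compared, and each array left out.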

Additional observations from a re-analysis of the deposited data

How the results depend on the processing

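The number of arrays above the midpoint of the range stayed at 8 for Creb3l3 and 11 for Eci1 under other scalings, background corrections and filters, and ranged from 8 to 9 for Pdk4, 10 to 11 for Vnn1 and 10 to 14 for Cyp24a1, second probes included. Of 310 differences of the 5 genes from day 0 under other settings, 13 had the opposite sign. These were 8 on day 2 (4 for Pdk4, 3 for Cyp24a1 and 1 for Creb3l3, with main values of 0.12, −0.25 and −0.26), 3 on day 3, where Pdk4, Vnn1 and Eci1 without replicate 2 lay 0.19, 0.55 and 0.38 above day 0, and 2 for Vnn1 on day 4 (main 0.28; −0.14 after quantile normalization, −0.27 relative to reference genes), as in the deposited table (−0.15). The median within-day r was 0.69 after normexp, 0.88 without control replicate 4, 0.12 without day 3, 0.14 without day 3 replicate 2 (chosen after seeing the data) and 0.43 on scan day 2 alone. With midpoints set anew from the arrays of scan day 2 alone, the 5 genes shared a side on 33.3% of these arrays.

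Normexp background correction called the fewest genes against day 0: 29, 1476, 1544, 2604 and 56 of all genes on days 1 to 5, and 0, 2, 4 and 1 between consecutive days. Of the PPAR alpha list it called 0, 0, 0, 2 and 0 on days 1 to 5, and 0 from day 1 to 2 and from day 4 to 5. It turned Fabp1 (0.13 on day 5 against day 0 and 0.51 against day 4) and Apoa4 on day 5 (0.026). With 14 local backgrounds over 1000 set to the array's median, chosen after seeing the data, 2 list genes were called on day 3 and 8 on day 4.

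The slide as a fixed block left 4105, 2914 and 103 of all genes and 4, 0 and 0 list genes on days 1, 3 and 5. Day 0 was tied to the other slides only through day 1 replicate 1. Days 2 and 4 shared no slide with the other days, so their changes against day 0 and those between consecutive days could not be adjusted for slide. The fit dropped a term there. Its counts are no check of the slide: 3449 of all genes on day 2, 5, 0, 2 and 4 between consecutive days, and 0 list genes on day 2, from day 1 to 2 and from day 4 to 5. As a random block it called 3 list genes on day 3. In the fit with the replicate block, 7817 of all genes were called on day 4, and 2, 10, 24 and 27 between consecutive days, with 0 list genes from day 1 to 2 and 1 from day 4 to 5. With the 6 arrays compared alone, 3305 and 4816 of all genes were called on days 1 and 5, and 350, 35 and 14 from day 1 to 2, 2 to 3 and 3 to 4. The list then had 1 on day 2, 8 from day 1 to 2 and 5 from day 4 to 5.

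Scaling moved the balance of all calls: on day 1, 4454 rose and 4810 fell in the main setting, 8300 and 2932 with arrays scaled to their median, and 1246 and 8315 relative to reference genes, as the median of all genes moved from 0.06 to 0.40 and −0.35. Reference genes gave 1258 and 1151 calls from day 3 to 4 and day 4 to 5, 0, 4 and 17 list genes on days 2, 3 and 5 and 1 from day 1 to 2, and turned Slc5a6 (−0.015) and Pank4 (−0.058) on day 4, genes of the coenzyme A pathway. Median scaling gave 450 calls from day 3 to 4, and 2 list genes on day 3, 9 on day 4 and 1 from day 4 to 5. Quantile normalization gave 6, 7 and 20 list genes on days 3, 4 and 5 and 1 from day 4 to 5. Shares of all genes called against day 0 on days 2 to 5 under these scalings are not given here. Without a filter there were 58, 46 and 374 calls from day 1 to 2, 2 to 3 and 3 to 4, with 0 list genes on day 3, 0 from day 1 to 2 and 1 from day 4 to 5.

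Leaving out 1 array gave 4616 to 9642, 7137 to 10858, 8375 to 11150, 9318 to 12104 and 6515 to 10565 calls on days 1 to 5, lowest each time without day 0 replicate 4, and 10 to 81, 7 to 63, 96 to 499 and 220 to 593 between consecutive days. For the list the counts were 9 to 11, 0 to 2, 0 to 5, 4 to 4 and 8 to 10 on days 1 to 5, 0 to 0 from day 1 to 2, 0 to 1 from day 3 to 4 and 1 to 1 from day 4 to 5. Of 1728 results for single list genes, 1269 kept direction and call, 454 lost the call and 5 turned. The cause of these changes was not tested.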
